A study of Mus musculus with 14 samples.

Results

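The transcription factors that set up and maintain the T helper type 1 (Th1) programme were followed in repeatedly activated murine Th1 cells. The set held 7 genes, *Tbx21*, *Stat4*, *Twist1*, *Runx3*, *Hopx*, *Hlx* and *Eomes*, of the 18194 genes that the array annotation named with a single symbol. They were chosen by name, as known factors of the Th1 lineage, and every probe set annotated to 1 of the 7 symbols alone was taken. This gave 10 probe sets, since *Runx3*, *Hopx* and *Eomes* were each read by 2.

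Th1 cells arise from naïve CD4+ T cells that receive interleukin-12 (IL-12). The IL-12 receptor activates STAT4, and STAT4 together with signals from the T cell receptor and from interferon-γ (IFN-γ) induces T-bet, the product of *Tbx21*, which switches on *Ifng* and other effector genes. RUNX3 works with T-bet at *Ifng* and at the *Il4* silencer, HLX is a homeobox factor that acts with T-bet, and Eomesodermin, the product of *Eomes*, is a T-box relative of T-bet best known from CD8+ T cells and natural killer cells. *Twist1* encodes a basic helix-loop-helix factor that restrains cytokine genes in chronically activated Th1 cells, and *Hopx* encodes a small homeodomain protein linked to the survival of T-bet-expressing effector cells.

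Naïve CD4+CD62Lhi cells were taken from OT-II mice aged 6 to 10 weeks (spleen and lymph nodes), whose T cells carry 1 transgenic receptor for an ovalbumin peptide. All cells were cultured with peptide and irradiated antigen-presenting cells under Th1 conditions, that is with IL-12 and an antibody to IL-4, and were restimulated with fresh antigen-presenting cells, with IL-2 in the medium once the first stimulation was over. After the fourth round these Th1 rep cells were placed for 1.5 h in serum-free medium with 1 µM of Antagomir-31, a modified antisense oligonucleotide against the microRNA miR-31, or 1 µM of Antagomir-SCR, a control oligonucleotide with an unspecific sequence. Both groups were then reactivated on plate-bound αCD3 and αCD28 in Th1 medium with IL-2, and RNA was taken at 36, 48 and 72 h. The paper's general culture methods take cells off the stimulus 48 h after activation unless stated otherwise. Its antagomir methods do not state otherwise, so the 72 h cells may have been off the stimulus since 48 h. There were 2 arrays per treatment at 36 h and at 48 h and 3 at 72 h, 14 in all. An untreated or naïve group was not analysed here, so every level is that of a Th1 cell culture that had been stimulated again and had met an oligonucleotide.

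The designed target of Antagomir-31 is the mature strand of miR-31, shown here because it is the sequence that separates the treatments. RefSeq places it on GRCm38.p6 at chr4:88910614-88910635, minus strand, and capitals mark its seed, bases 2 to 8.
mmu-miR-31-5p: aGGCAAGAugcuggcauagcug
None of the 7 factors is in the study's list of putative miR-31 targets, so the comparison of treatments asks whether the Th1 factors themselves differed once miR-31 was blocked, and the time course asks how each factor behaved as the stimulation wore on.

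Signals within a time agreed closely, with Pearson correlations of 0.997 to 0.998 between arrays. The mean intensity of an array lay from 232 to 235 for 36 h, from 223 to 224 for 48 h and from 266 to 267 for 72 h, which differs more between times than within them, and the median log2 difference from 48 h to 72 h over all probe sets tested was 0.35 as deposited, 0.03 after quantile normalization over all 14 arrays and 0.00 after centring each array on its median. Time cannot be told apart from the normalization or batch of the arrays, nor 72 h from a removal from the stimulus at 48 h. Levels over time are therefore given as descriptions, on the deposited and on the quantile-normalized scale, and with no test. All 6 T cell markers (*Cd3d*, *Cd3e*, *Cd3g*, *Cd4*, *Cd28* and *Thy1*) were above the filter of the tests, a mean log2 intensity of at least 5, and their summed intensity lay between 13594 and 15234 on all arrays. The 4 B cell probe sets all lay below that filter, as did 4 of 5 for CD8+ T and natural killer cells, with *Cd8a* just above it at a mean log2 of 5.06, and 3 of 6 for myeloid and dendritic cells, whose summed intensity was 186 to 238. In bulk RNA, fewer cells expressing a gene and less RNA per cell cannot be told apart.

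*Tbx21*, which encodes T-bet, dipped at 48 h and was highest at 72 h. Its probe set (1449361_at) read 1188 and 1234 with Antagomir-SCR and 1232 and 1243 with Antagomir-31 at 36 h. It read 972 and 1060.0 with Antagomir-SCR and 1026 and 944 with Antagomir-31 at 48 h. It reached 1860.2, 1885 and 1819 with Antagomir-SCR and 1745, 1730.4 and 1767 with Antagomir-31 at 72 h. The arrays of the 3 times did not overlap, so the order of the levels was 72 h, then 36 h, then 48 h. From 48 h to 72 h *Tbx21* was 1.80-fold higher as deposited and 1.52-fold higher after quantile normalization, and 12.8% of all probe sets tested were higher by at least as much on the deposited scale. The log2 difference from 48 h to 72 h was 0.87 with Antagomir-SCR alone and 0.83 with Antagomir-31 alone.

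*Stat4*, the factor that IL-12 activates, showed the opposite picture and the widest change of the 7 genes. On the probe set 1448713_at the 36 h arrays gave 1059 and 1028 with Antagomir-SCR and 1056 and 1110.0 with Antagomir-31. The 48 h arrays gave 1155 and 1232 with Antagomir-SCR and 1029 and 1150.5 with Antagomir-31. The 72 h arrays gave 267, 270.0 and 283 with Antagomir-SCR and 275, 231 and 259 with Antagomir-31. The levels at 36 h and 48 h overlapped, and every array at 72 h lay far below both. *Stat4* was 4.32-fold lower at 72 h than at 48 h as deposited and 5.37-fold lower after quantile normalization, and 0.619% of all probe sets tested were lower by at least as much on the deposited scale. The log2 difference was -2.13 with Antagomir-SCR alone and -2.10 with Antagomir-31 alone.

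*Twist1*, the brake on Th1 cytokine genes, declined in steps. The probe set 1418733_at read 332 and 338 with Antagomir-SCR at 36 h, against 302 and 289 with Antagomir-31. By 48 h the values were 240.03 and 245 with Antagomir-SCR and 258 and 245 with Antagomir-31. By 72 h they were 169.8, 166 and 151 with Antagomir-SCR and 176, 179 and 177 with Antagomir-31. Times did not overlap, whichever treatment was read. From 36 h to 72 h *Twist1* was 1.86-fold lower as deposited and 2.29-fold lower after quantile normalization. From 48 h to 72 h the decline was 1.46-fold as deposited and 1.86-fold after normalization.

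*Runx3*, the partner of T-bet, was read by 2 probe sets that did not follow the same course. The brighter (1440275_at) gave 236 and 211 with Antagomir-SCR and 238 and 255 with Antagomir-31 at 36 h, and 229 and 236 with Antagomir-SCR and 269 and 232 with Antagomir-31 at 48 h. At 72 h it gave 417, 428 and 466 with Antagomir-SCR and 483, 464 and 470.1 with Antagomir-31. The first pair of times overlapped and all arrays at 72 h lay above them, 1.89-fold above 48 h as deposited and 1.51-fold after quantile normalization. The dimmer *Runx3* probe set (1421467_at) stayed between 37.5 and 51.4 on all 14 arrays. Its arrays at 48 h and 72 h overlapped, with a log2 difference of 0.18 as deposited and -0.19 after normalization, so it had no settled direction there. It was lower at 48 h than at 36 h with no overlap (-0.34 and -0.28) and lower at 72 h than at 36 h (-0.16, with overlap, and -0.46, with none), opposite to the brighter probe set, and the cause of the disagreement between the probe sets was not tested.

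*Hopx* stood higher at each later time on its brighter probe set (1428662_a_at). It read 1109 and 1084 with Antagomir-SCR and 1018 and 1084 with Antagomir-31 at 36 h. It read 1493 and 1384 with Antagomir-SCR and 1305 and 1431 with Antagomir-31 at 48 h, and 2010.3, 2026 and 2012 with Antagomir-SCR and 1972, 1988 and 1939 with Antagomir-31 at 72 h. No 2 times overlapped, and 72 h was 1.86-fold above 36 h as deposited and 1.66-fold after quantile normalization. From 48 h to 72 h the difference was 1.42-fold and 1.21-fold. The dimmer probe set (1451776_s_at) ranged from 691 to 738 at 36 h, from 787 to 842 at 48 h and from 818 to 1007 at 72 h. There, 48 h and 72 h overlapped and the log2 difference was 0.12 as deposited but -0.12 after normalization, so the sign of the late difference on the dimmer probe set turned with the scaling.

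*Hlx* was a dim gene that moved late. The probe set 1418939_at gave 33.3 and 33.1 with Antagomir-SCR and 36.8 and 33.9 with Antagomir-31 at 36 h, and 36.4 and 33.3 with Antagomir-SCR and 34.4 and 32.8 with Antagomir-31 at 48 h. Those 8 values overlapped and lay near the filter, which corresponds to an intensity of 32. At 72 h it gave 92.1, 86.3 and 91.7 with Antagomir-SCR and 90.8, 90.2 and 81.9 with Antagomir-31, above every earlier array. *Hlx* was 2.60-fold higher at 72 h than at 48 h as deposited and 2.00-fold after quantile normalization, and 2.43% of all probe sets tested were higher by at least as much on the deposited scale.

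*Eomes*, the T-box relative of T-bet, gave little signal, and neither of its probe sets reached the mean log2 intensity of 5 that the tests required. The brighter (1426001_at) gave 42.2 and 37.2 with Antagomir-SCR and 45.2 and 36.2 with Antagomir-31 at 36 h, and 27.6 and 32.1 with Antagomir-SCR and 33.5 and 30.4 with Antagomir-31 at 48 h. At 72 h it gave 24.3, 26.0 and 24.9 with Antagomir-SCR and 22.8, 27.1 and 23.4 with Antagomir-31. The 3 times did not overlap, and the ratio of 36 h to 72 h was 1.62 as deposited and 1.97 after normalization, from signals too low for the tests. The dimmer probe set (1435172_at) lay between 25.9 and 36.3 on all arrays, with 36 h and 48 h overlapping and ratios of 36 h to 72 h of 1.17 and 1.42.

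**Figure D1:**
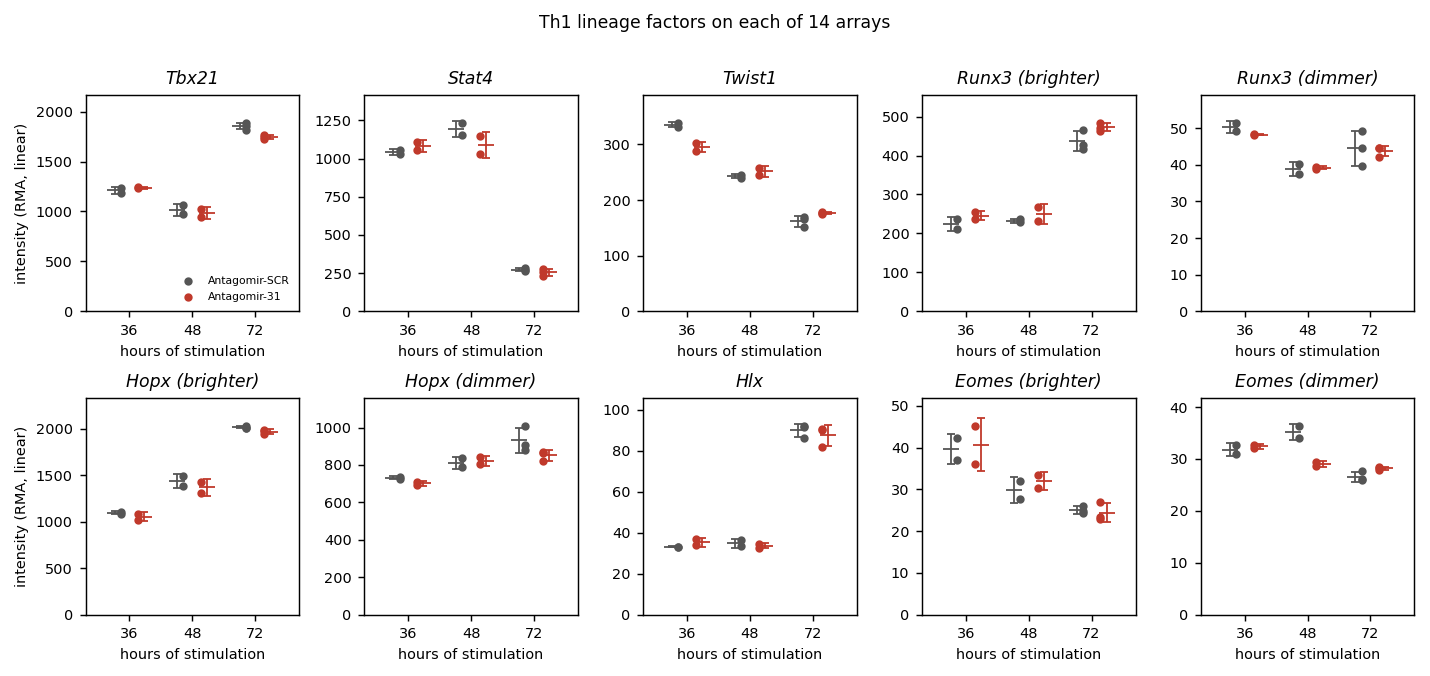
Intensity (RMA, linear scale from 0, its own axis in each panel) of the 10 probe sets of the 7 factors at 36, 48 and 72 h. The horizontal axis counts hours from reactivation, and the cells may have been off the stimulus after 48 h. Each point is 1 array, grey for Antagomir-SCR and red for Antagomir-31, and the bars beside the points are the group mean and SD (n = 2 at 36 and 48 h, n = 3 at 72 h). *Tbx21*, the brighter *Runx3* and *Hopx* probe sets and *Hlx* stand highest at 72 h. *Stat4* falls from between 1029 and 1232 at 48 h to between 231 and 283 at 72 h. Within a time the colours do not overlap on some probe sets, such as *Twist1* at 36 h and 72 h and the dimmer *Eomes* probe set at 48 h.

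Read together, the members parted further after 48 h than before it. From 36 h to 48 h there were already differences of less than 1.5-fold without overlap, by the brightest probe set. *Hopx* was higher (log2 difference 0.39 as deposited), and *Tbx21* (-0.29), *Twist1* (-0.35) and *Eomes* (-0.38) were lower. Of all probe sets tested, 3.19% were higher by at least as much as *Hopx*. A gene was counted as changed between 2 times where the arrays of both treatments did not overlap and the difference was at least 1.5-fold, both on the deposited scale and after quantile normalization, by its brightest probe set. From 36 h to 48 h no member met this in either direction, where 0.852% of all 17602 probe sets tested were higher and 0.778% lower by the same rule. From 48 h to 72 h, 3 genes were higher (*Tbx21*, *Runx3* and *Hlx*; background 10.2%) and *Stat4* was lower (background 4.37%). From 36 h to 72 h, *Runx3*, *Hopx* and *Hlx* were higher (background 11.5%) and *Stat4*, *Twist1* and *Eomes* were lower (background 5.38%, which is over the probe sets tested and so leaves out those of *Eomes*). The counts for *Tbx21* and *Runx3* from 48 h to 72 h sat just past the limit after quantile normalization: centring each array on its median left *Hlx* as the 1 gene higher, and so did leaving out the Antagomir-31 48 h replicate 2. After quantile normalization alone and after median centring, 3 genes were lower from 48 h to 72 h (*Stat4*, *Twist1* and *Eomes*), so that with median centring the split was 1 higher and 3 lower. The counts of *Runx3* as higher and of *Eomes* as lower from 36 h to 72 h rest on their brighter probe sets, and their dimmer ones did not meet the rule.

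**Figure D2:**
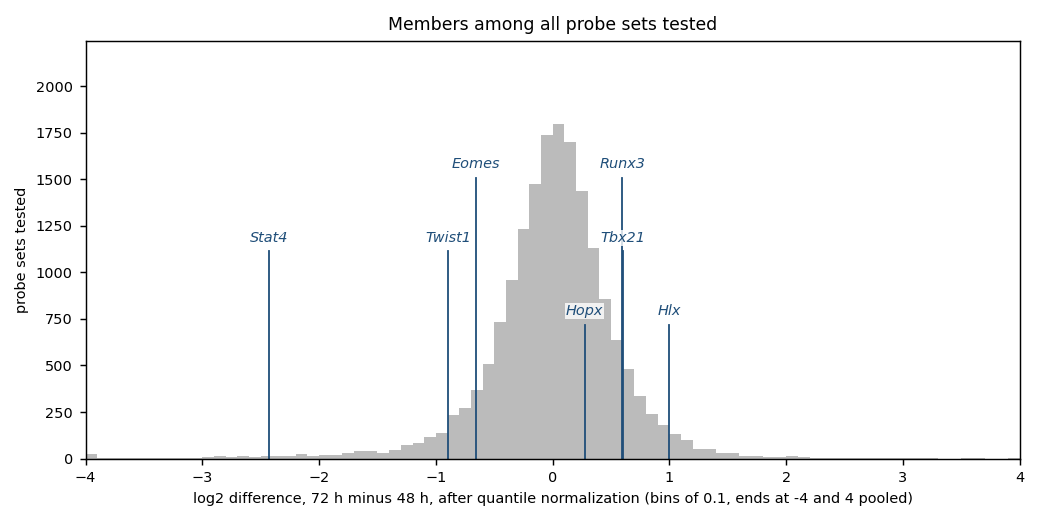
Histogram of the log2 difference between 72 h and 48 h after quantile normalization over the 17602 probe sets tested (horizontal axis in log2 units, vertical axis in probe sets per bin). Blue lines mark the brightest probe set of each of the 7 factors; line height only spaces the names, and *Eomes* is below the filter of the tests. *Stat4* lies at -2.43 in the sparse left tail, with *Twist1* at -0.89 and *Eomes* at -0.66 on the left side. *Hopx* at 0.28, *Runx3* and *Tbx21* at 0.60 and *Hlx* at 1.00 lie on the right.

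The promoters of *Tbx21* and *Stat4* are printed because their RNA moved in opposite directions after 48 h, and those of *Runx3* because its probe sets disagreed and the gene has 2 start sites in RefSeq. Each window runs from 250 bases before to 50 after a start site of RefSeq on GRCm38.p6, written 5′ to 3′ along the gene. Capitals mark the RUNX letters TGTGGT on either strand, and lower case all else.
Tbx21, chr11:97115282-97115581, minus strand: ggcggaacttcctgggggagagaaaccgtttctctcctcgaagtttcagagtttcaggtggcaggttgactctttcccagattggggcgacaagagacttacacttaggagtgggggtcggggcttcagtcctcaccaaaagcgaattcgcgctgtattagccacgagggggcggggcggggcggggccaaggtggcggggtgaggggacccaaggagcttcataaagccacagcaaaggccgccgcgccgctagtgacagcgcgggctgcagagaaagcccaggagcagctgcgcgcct
Stat4, chr1:51986898-51987197, plus strand: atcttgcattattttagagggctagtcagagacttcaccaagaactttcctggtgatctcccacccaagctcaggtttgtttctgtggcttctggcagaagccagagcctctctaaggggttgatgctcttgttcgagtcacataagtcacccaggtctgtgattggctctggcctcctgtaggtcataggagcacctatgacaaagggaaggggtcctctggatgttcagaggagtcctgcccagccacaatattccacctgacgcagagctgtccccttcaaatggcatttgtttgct
Stat4, chr1:52007990-52008289, plus strand: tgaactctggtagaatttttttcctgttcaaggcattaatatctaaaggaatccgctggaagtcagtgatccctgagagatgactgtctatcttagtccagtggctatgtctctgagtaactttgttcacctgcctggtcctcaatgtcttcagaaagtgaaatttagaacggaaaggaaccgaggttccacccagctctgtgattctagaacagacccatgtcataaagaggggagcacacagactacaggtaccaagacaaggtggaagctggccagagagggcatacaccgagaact
Runx3, chr4:135120395-135120694, plus strand: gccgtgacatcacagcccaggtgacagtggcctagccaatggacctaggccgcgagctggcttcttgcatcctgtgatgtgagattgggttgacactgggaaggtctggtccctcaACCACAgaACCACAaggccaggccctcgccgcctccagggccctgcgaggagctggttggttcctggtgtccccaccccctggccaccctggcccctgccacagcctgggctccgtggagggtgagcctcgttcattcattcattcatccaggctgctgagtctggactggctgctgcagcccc
Runx3, chr4:135152295-135152594, plus strand: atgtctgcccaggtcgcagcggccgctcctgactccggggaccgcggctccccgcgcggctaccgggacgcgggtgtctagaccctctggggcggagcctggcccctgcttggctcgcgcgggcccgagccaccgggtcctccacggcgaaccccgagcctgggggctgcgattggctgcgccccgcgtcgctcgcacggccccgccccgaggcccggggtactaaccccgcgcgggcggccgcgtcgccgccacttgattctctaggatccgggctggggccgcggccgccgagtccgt
All 7 genes had at least 1 window, 10 windows in all. The T-box core letters GTGTGA, the STAT letters TTCNNNGAA and the RUNX letters TGTGGT were searched on both strands in each. GTGTGA and TTCNNNGAA occurred in none of the 10 windows, against 14.5% and 8.3% of the 32851 promoters in the table, and this says only that these letters are not in these windows. TGTGGT occurred in 1 window, the first *Runx3* promoter, at 2 places on the reverse strand that begin 134 and 126 bases before the start and overlap no other letters searched, and 16.8% of all promoters held it. RUNX proteins bind such letters, and a match is a description of the sequence. Which start site the RNA on the arrays came from was not tested.

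Between the treatments, no Th1 factor passed the test at any time. At 36 h 0 of the 8 tested probe sets were called, where 0.0114% of all probe sets tested were (2 of 17602). An unadjusted p under 0.05 was found for 1 of the 8, beside 4.90% of all probe sets tested (863 of 17602). At 48 h 0 of 8 were called, where 0.0% of all probe sets were (1066 of 17602 had an unadjusted p under 0.05), and 0 of 8 had an unadjusted p under 0.05. At 72 h 0 of 8 were called, where 0.864% of all probe sets were (152 of 17602). There 2 of 8 had an unadjusted p under 0.05, beside 18.4% of all probe sets tested (3236 of 17602). All estimates at 72 h lay between -8.41% and 9.38%, and their 95% intervals between -15.7% and 19.5%, so differences of a size like that of *Stat4* over time lie outside them. The median log2 difference of the 8 at 72 h was -0.04 beside -0.01 for all probe sets tested. The tests used limma with p-values adjusted over the whole table, as do all adjusted p-values below, and since the labels do not say that the arrays came from separate cultures, each p reflects just the scatter among these samples, which may be a technical one.

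*Tbx21* was lower with Antagomir-31 on all 3 arrays at 72 h (1730.4 to 1767 against 1819 to 1885), yet the difference of -5.77% had a 95% interval from -12.2% to 1.13% (adjusted p = 0.35). At 36 h and 48 h its differences were 2.21% and -3.03%, with overlapping arrays. The summed intensity of the 6 T cell markers at 72 h was also lower with Antagomir-31, 14549 to 14917 against 15089 to 15234. Bright markers weigh most in this sum. *Cd3d* (5163 against 5485) and *Cd3g* (2808 against 2971) were lower, but 3 of the 6 markers were higher. The median log2 difference of the 6 was -0.006, and 0 of them had an unadjusted p under 0.05 in limma. The part of the lower sum in the readings of *Tbx21*, *Stat4* and *Hopx* was not tested. *Stat4* differed by -6.96% at 72 h (-15.7% to 2.75%, adjusted p = 0.43) and by -8.80% at 48 h (-19.2% to 2.99%, adjusted p = 0.89). For both, then, the interval reached past 0 in each direction.

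The estimates for *Twist1* lay on opposite sides of 0. At 36 h the Antagomir-31 arrays were the lower (289 and 302 against 332 and 338), a difference of -11.9% (95% interval -19.5% to -3.53%, adjusted p = 0.77). At 72 h they were the higher (176 to 179 against 151 to 169.8), a difference of 9.38% (1.57% to 17.8%, adjusted p = 0.19). The difference between the 2 effects was 0.31 on the log2 scale (SE 0.08, unadjusted p = 0.0017, adjusted p = 0.23), which did not pass the test, where 0.00568% of all probe sets did.

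The brighter *Runx3* probe set gave estimates of 10.1% for Antagomir-31 over Antagomir-SCR at 36 h, then 7.38% and 8.19% at the later times, and its arrays did not overlap at 36 h only. Over the 3 times together this came to 8.56% (95% interval 1.60% to 16.0%, unadjusted p = 0.019, adjusted p = 0.43), where 0.017% of all probe sets passed. The dimmer *Runx3* probe set gave -1.49% over the 3 times (-7.88% to 5.34%), so the estimate for the gene depended on which probe set was read.

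The *Hopx* arrays of Antagomir-31 lay below those of Antagomir-SCR at 72 h on both probe sets, with differences of -2.46% on the brighter (adjusted p = 0.73) and -8.41% on the dimmer (95% interval -15.6% to -0.580%, adjusted p = 0.24). *Hlx* differed by -2.73% at 72 h (-10.7% to 5.95%, adjusted p = 0.75). At 72 h the treatments did not overlap on 4 of the 8 probe sets, those of *Tbx21*, *Twist1* and *Hopx*, beside 24.4% of all probe sets tested. At 36 h it was 5 of 8 beside 28.9%, and at 48 h 1 of 8 beside 33.0%, with only 2 arrays a side.

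For *Eomes* the fit was repeated with no filter on low signal, over 34958 probe sets. On the brighter probe set the differences were 2.04%, 7.13% and -2.81% in the order of the times. The dimmer one gave 29.5 and 28.7 with Antagomir-31 against 34.1 and 36.3 with Antagomir-SCR at 48 h, a difference of -17.4% (95% interval -25.0% to -9.08%, unadjusted p = 0.00089, adjusted p = 0.48), and 6.13% at 72 h (adjusted p = 0.58). That probe set's effects at 72 h and 48 h differed by 0.36 on the log2 scale (SE 0.08, unadjusted p = 0.00079, adjusted p = 0.39). In this wider fit 0.0% of all probe sets were called at 36 h, 0.0% at 48 h and 0.0372% at 72 h, and 0.0% for the average and for either difference between times. Neither *Eomes* probe set was called, and at 48 h the estimates of the probe sets had opposite signs.

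The other tested members had differences of effect between 72 h and 48 h from -0.15 to 0.08 on the log2 scale, with a smallest adjusted p of 0.59, where 0.017% of all probe sets passed.

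**Figure D3:**
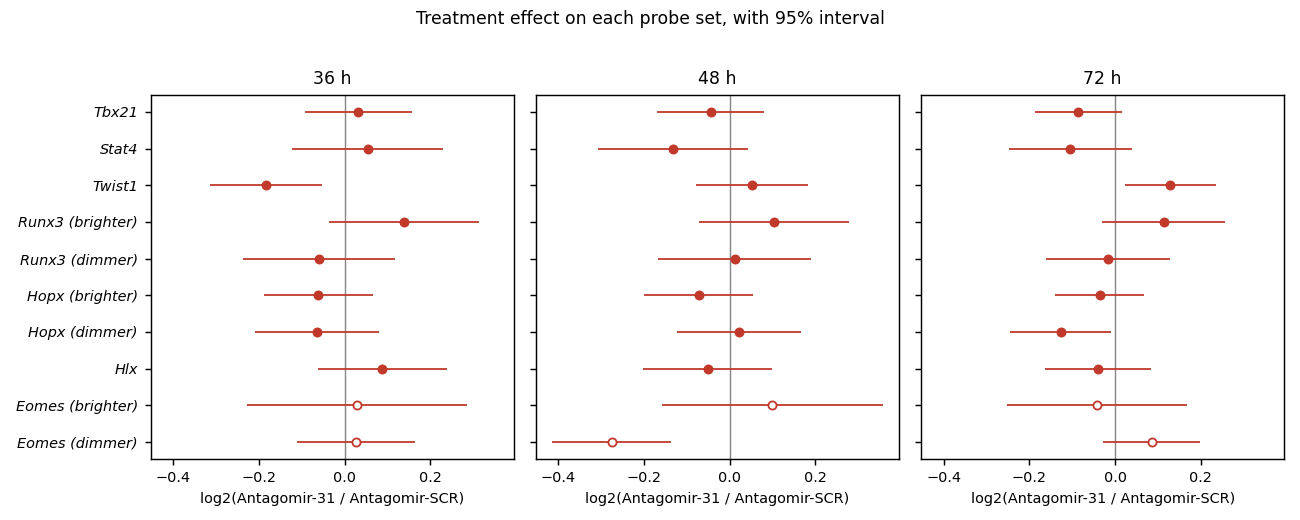
Log2 ratio of Antagomir-31 to Antagomir-SCR for each probe set of the 7 factors at 36, 48 and 72 h, with 95% intervals from limma. Filled points come from the fit of the 17602 probe sets above the filter and open points, both *Eomes* probe sets, from the fit with no filter. The filled points lie between -0.18 and 0.14, and the *Twist1* interval is left of 0 at 36 h and right of 0 at 72 h.

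Genes that feed the Th1 factors moved in both directions after 48 h. Of 11 genes of IL-12, IL-18 and IFN-γ signalling, 9 passed the filter, and by the rule used for the members 3 were higher and 1 lower at 72 h than at 48 h, beside 10.2% and 4.37% of all probe sets tested. *Il18r1*, a chain of the IL-18 receptor, went from 1069 ± 42.7 (SD, n = 4) to 2445 ± 145 (n = 6). *Ifngr1*, a chain of the IFN-γ receptor, went from 473 ± 51.8 to 965 ± 101, and *Irf1*, a transcription factor induced by IFN-γ, from 219 ± 12.6 to 583 ± 70.2. *Jak2*, a kinase at the IL-12 and IFN-γ receptors, was the 1 that was lower, with 761 ± 47.3 and then 360.2 ± 23.8. The median log2 difference of the 9 genes was 0.39 as deposited, beside 0.35 over all probe sets tested. None of the 9 was called between treatments at 72 h. The smallest p-values there belonged to *Il12rb2*, the inducible chain of the IL-12 receptor (log2 difference -0.34, adjusted p = 0.18), and *Il18rap* (-0.09, adjusted p = 0.22).

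Among effector genes that T-bet and STAT4 are known to drive, the chemokines and *Prf1* were far lower at 72 h than at 48 h. At 72 h *Tbx21* was highest and *Stat4* lowest, and a link between these courses was not tested. Of 16 genes, 15 passed the filter, 7 were lower at 72 h than at 48 h (background 4.37%) and 1, *Il18r1*, which also stands in the list before, was higher. *Xcl1*, a chemokine, went from 10071 ± 274 (SD, n = 4) to 42.6 ± 2.15 (n = 6). *Ccl3* went from 13631 ± 258 to 816 ± 137 and *Ccl4* from 8261 ± 216 to 912 ± 22.2, both genes of inflammatory chemokines. *Ifng* itself went from 15490.0 ± 222 to 8481 ± 212, a smaller difference. *Prf1*, the pore-forming protein of cytotoxic cells, went from 3379 ± 102 to 544 ± 73.9 and *Tnf* from 839 ± 121 to 285 ± 21.8, and *Fasl*, a death ligand, was lower as well. *Gzmb*, a protease of cytotoxic granules, read 13946 ± 130.1 and 14368 ± 259 and met no limit. Some genes of the list were higher as deposited without meeting the rule, such as *Lta*, with 3565 ± 336 and then 4825 ± 262. The median log2 difference of the 15 genes was -0.28 as deposited. These genes were named for their course over time after their values were seen.

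Between treatments 2 of these 15 genes were called at 72 h, both higher with Antagomir-31, beside 0.864% of all probe sets tested (152, and 6 to 570 when 1 array was left out). *Ccl3* read 935 ± 50.3 against 698 ± 43.1 (SD, n = 3 each), a log2 difference of 0.42 (adjusted p = 0.0078), and *Havcr2*, the inhibitory receptor TIM-3, read 1129 ± 30.4 against 960.5 ± 24.0, a log2 difference of 0.23 (adjusted p = 0.037). The call for *Ccl3* held in 21 of 23 alternative analyses and was lost without the Antagomir-SCR 72 h replicate 3 (adjusted p = 0.050) and from the 72 h arrays alone (0.083). That for *Havcr2* held in 12 of 23, and it was lost when either Antagomir-SCR 36 h array, any Antagomir-SCR 72 h array or the Antagomir-31 72 h replicate 2 or 3 was left out (adjusted p from 0.053 to 0.16). It was also lost with the replicate block (0.096), with that block crossed at 48 h (0.074), with no filter (0.14) and from the 72 h arrays alone (0.11). The median log2 difference of the 15 genes was -0.01, like that of all probe sets tested.

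Partners and paralogs of the members gave a like mixture. Of 14 genes 10 passed the filter, 2 were higher and 1 was lower at 72 h than at 48 h (10.2% and 4.37% over all probe sets tested), and none was called between treatments at 72 h. *Id2*, an inhibitor of helix-loop-helix factors, came nearest (log2 difference 0.21, adjusted p = 0.095). From 48 h to 72 h *Cbfb*, the partner subunit of all RUNX proteins, went from 1029 ± 20.2 (SD, n = 4) to 1937 ± 16.7 (n = 6), in the direction of the brighter *Runx3* probe set. *Tcf3*, an E protein that pairs with helix-loop-helix factors such as TWIST1, went from 191 ± 8.94 to 395 ± 24.9, against the direction of *Twist1*. *Tcf12* and *Runx1*, also on this list, were lower at 72 h without meeting the rule, with log2 differences of -0.18 and -0.51 as deposited. *Zeb2*, which encodes a zinc-finger transcriptional repressor, went from 303 ± 22.2 to 122 ± 13.6.

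Factors of other helper fates differed over time as well. Of 14 genes 9 passed the filter, 3 were higher at 72 h than at 48 h and 1 was lower, beside 10.2% and 4.37% of all probe sets tested. *Gata3*, the master factor of Th2 cells, was dim throughout and went from 87.9 ± 10.3 (SD, n = 4) to 21.2 ± 2.01 (n = 6), while *Rora*, *Lef1* and *Prdm1* were higher at 72 h. *Prdm1*, which encodes BLIMP-1, was the 1 gene of this list called between treatments, with 385 ± 1.36 for Antagomir-31 against 314 ± 13.6 (SD, n = 3 each) at 72 h, a log2 difference of 0.30 (adjusted p = 0.028). Its call held in 16 of 23 alternative analyses, and it was lost without the Antagomir-SCR 72 h replicate 3 or 4 or the Antagomir-31 72 h replicate 2 or 3 (adjusted p from 0.062 to 0.13). It was also lost with the replicate block (0.069), with no filter (0.093) and from the 72 h arrays alone (0.099).

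**Figure D4:**
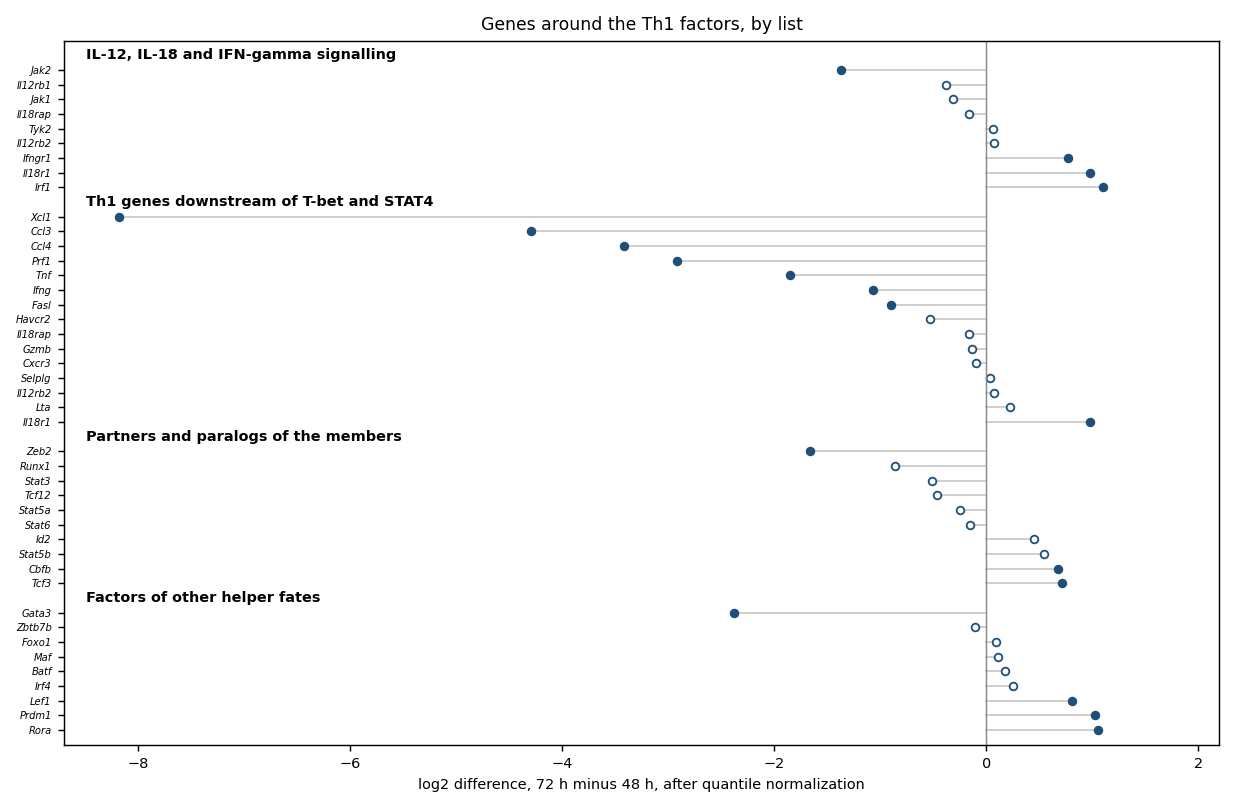
Log2 difference between 72 h and 48 h after quantile normalization (horizontal axis) for the genes of 4 lists that passed the filter, 1 row per gene by its brightest probe set. Filled points met the rule for a difference between times (no overlap and at least 1.5-fold on both scales) and open points did not. The chemokine genes *Xcl1*, *Ccl3* and *Ccl4* lie farthest left, at -8.18, -4.29 and -3.42, and *Irf1* lies farthest right at 1.11.

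For each member the genes with the most similar course were sought by Pearson's correlation of log2 intensity, as deposited, over the 14 arrays. This is a description in which all points share the same 3 times. *Stat4* was followed most closely by *Idi2* (r = 0.997), *Plek* and *Ndfip2*, and *Tbx21* by *Cars2* (r = 0.997), *Cdv3* and *N4bp2l1*. *Twist1* was followed by *Dnajc3* (r = 0.990), *Spred1* and *Hspa5*, of which *Dnajc3* and *Hspa5* encode chaperones of the endoplasmic reticulum. *Runx3* was followed by *Adam19* (r = 0.994), *Parp14* and *Dcun1d3*, and *Hopx* by *Ogfrl1* (r = 0.994), *Asrgl1* and *Nubpl*. *Hlx* was followed by *Mms22l* (r = 0.998), *Inf2* and *Cenpn*. *Eomes* had the loosest match, with *Atp2b1* (r = 0.962), *Fgd3* and *Ago2*. Among the 17602 probe sets tested, leaving out those of the members, the number that reached r of at least 0.95 was 4494 with *Hlx*, 3114 with *Runx3*, 2247 with *Tbx21*, 1117 with *Hopx*, 715 with *Stat4*, 316 with *Twist1* and 6 with *Eomes*. The deposited scale holds a median rise of 0.35 from 48 h to 72 h over all probe sets tested, against 0.03 after quantile normalization. How far that shared shift enters these counts was not tested.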

How the data were processed

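RNA of Th1 rep cells that had received Antagomir-31 or Antagomir-SCR was hybridized to Affymetrix Mouse 430_2 arrays. The authors processed the scans with the affy package and RMA, and the deposited values are RMA intensity on a linear scale, 1 per probe set and array. RMA subtracts background and quantile-normalizes, which compresses differences of dim genes. The genome build is not given in the sources used here, and arrays have no read depth: precision is limited by their number, 2 per group at 36 and 48 h and 3 at 72 h. Of 45101 probe sets, 34958 had 1 gene symbol in the platform annotation, 932 several and 9211 none. From the deposited intensity log2 values were taken, and 17602 probe sets of 10370 genes with a mean log2 of at least 5 were tested in 1 fit of 6 groups with limma 3.58.1 in R 4.3.3 (residual df 8), with Benjamini-Hochberg adjustment over all of them and a threshold of 0.05. The median SE of a treatment effect was 0.08 on the log2 scale at 36 and 48 h and 0.06 at 72 h. Scripts were tested on simulated data.

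Groups came from the sample titles. All probe sets of the 7 factors are named, of each list the genes called at 72 h or otherwise those with the smallest p-values, for likeness the 3 genes with the highest correlation, and genes of a list that differed between times. The members, lists and tests were chosen with earlier results of these data known. A gene of a list was read by its brightest probe set, and lists are described by counts, with no test of the list. Alternatives were quantile normalization, median centring, other filters, a variance trend, fits of 1 time, a replicate block, gene-level values and leaving out each array.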

Additional observations from a re-analysis of the deposited data

Results flagged for a closer look

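2 probe sets of the Th1 factors had treatment effects that pointed opposite ways at 2 times, with no overlap between the treatments at either. The treatments did not overlap on 28.9% of all probe sets tested at 36 h, 33.0% at 48 h and 24.4% at 72 h. Those shares leave out *Eomes*, and the share with opposite effects at 2 times was not counted. For *Twist1* (1418733_at) every Antagomir-31 array was lower at 36 h and higher at 72 h, and the effects differed by 0.312 on the log2 scale. In limma the unadjusted p of this difference was 0.0017 and the adjusted p 0.23, with adjusted p from 0.15 to 0.43 over the alternatives. For the dimmer *Eomes* probe set (1435172_at) every Antagomir-31 array was lower at 48 h and higher at 72 h, and the effects differed by 0.362. Here the unadjusted p was 0.00079 and the adjusted p 0.39, with 0.32 to 0.68 over the alternatives, and the probe set lay below the filter on low signal. Neither difference passed the test, and no cause was tested.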

How the results depend on the processing

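No member was called under any alternative, where the smallest adjusted p was 0.119. Of 930 alternative values for 43 member effects, 36 changed sign, all for effects of at most 0.103 on the log2 scale that had not passed the test. Over the 3 times together, quantile normalization gave 0.0083 for *Twist1* and 0.0082 for *Hlx*, and median centring gave 0.0042 and 0.0037, where the deposited scale gave -0.0008 and -0.0012. The other sign changes came from leaving out 1 array, which leaves an arm at 36 or 48 h with a lone array that is assumed to vary like the other groups. The resulting ranges at 36 h were -0.130 to 0.189 and -0.0138 to 0.0673 for the 2 *Eomes* probe sets. At 48 h they were -0.107 to 0.0184 for *Tbx21*, -0.0044 to 0.210 and -0.0413 to 0.0634 for *Runx3*, -0.0203 to 0.0633 for the dimmer *Hopx*, -0.115 to 0.0116 for *Hlx* and -0.0098 to 0.209 for the brighter *Eomes* probe set. At 72 h they were -0.0967 to 0.0575 for the dimmer *Runx3*, -0.0701 to 0.0082 for *Hlx* and -0.117 to 0.0061 for the brighter *Eomes* probe set. Over the 3 times they were -0.0179 to 0.0123 for *Twist1*, -0.0482 to 0.0032 for the dimmer *Runx3*, -0.0223 to 0.0199 for *Hlx* and -0.024 to 0.0823 for the brighter *Eomes* probe set.

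The member count of 0 is over just 8 probe sets in the main fit, which leaves it little room to move. Counts over the whole table moved with the processing, and the cause was not tested. The count at 72 h was 152, and 93 with median centring, 13 with no filter, 422 at a mean log2 of at least 6, 589 with a variance trend, 8 from the 72 h arrays alone and 6 to 570 leaving out 1 array. At 36 h it was 2, 1 at a mean log2 of at least 6, 0 with no filter, a trend, the 36 h arrays alone or gene-level values, and 0 to 2 leaving out 1 array. At 48 h it was 0, and 0 to 39 leaving out 1 array. The average gave 3, and 0 with no filter, 13 with a trend, 8 at gene level and 0 to 12 leaving out 1 array. The difference between 72 h and 36 h gave 1, and 0 with no filter, 3 at the stricter filter, 15 with a trend, 3 at gene level and 0 to 41 leaving out 1 array. The difference between 72 h and 48 h gave 3, and 0 with no filter, 5 at the stricter filter, 16 with a trend and 0 to 9 leaving out 1 array.

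The deviations of same-numbered arrays of the treatments had correlations of 0.075 at 36 h, -0.18 at 48 h and -0.02 to 0.15 at 72 h. Arrays of unlike number gave the same values with opposite sign at 36 h and 48 h, and -0.090 to 0.11 at 72 h. With so few arrays per group these correlations cannot decide whether the numbers pair the arrays. With the replicate block the counts were 39 at 72 h and 0 at 36 h, for the average and for both differences. With the numbers crossed at 48 h, a pairing chosen after seeing the data, they were 97 and again 0.

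Of the counts of members over time, 3 genes higher at 72 h than at 48 h became 1 with median centring and ranged from 1 to 3 leaving out 1 array, an alternative chosen after seeing the data. The 1 gene lower became 3 after quantile normalization alone and after median centring.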
